A study of Boehmeria nivea with 10 samples.

Results

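The 150 assembled transcripts whose level varied least across ramie roots grown in water and in soil are described here. They were chosen on their measured level. From the 40300 contigs named in 9 root libraries, the 31098 with identifiers starting with Unigene were kept, that is, those outside the assembly's clusters of related contigs. Of these, 6875 had an expected count of at least 100 in every library, and 3199 of those also averaged at least 30 FPKM, a contig's expected count divided by its length and by the reads of its library. The 150 with the lowest coefficient of variation (CV, the SD over the mean of FPKM across the 9 libraries) were taken, and the remaining 3049 are called the other eligible contigs. All 9 libraries and all 3 groups entered the choice, so every level and every difference between groups below is a description of the chosen contigs and not a test of their stability. The libraries could support no independent test between groups, because none was left out of the rule.

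Ramie (Boehmeria nivea) is a bast-fibre crop of the nettle family. The study followed roots as they formed in water and then adapted to it. There were 3 libraries of late hydroponic roots, from water-grown seedlings 30 days old, 3 of early hydroponic roots, from water-grown seedlings 5 days old, and 3 of terrestrial roots, from soil-grown seedlings 30 days old. Late hydroponic and terrestrial roots therefore differed in the medium, and early hydroponic and terrestrial roots in the medium and in age. No other treatment is stated, and the labels give no genotype and do not state if replicates are different plants. Each library held between 9499903 and 11522430 listed expected counts.

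Transcripts with steady levels serve as references in expression studies: a qPCR measurement of another gene is read relative to them, so a reference that moves with the treatment shifts every result. In plants such references are usually sought among genes for general cell functions, such as actin, tubulin, ubiquitin, translation elongation factors and subunits of protein phosphatases. A level is steady only relative to a scale, and FPKM measures a transcript against all reads of its library. The tables pair the contigs with no gene name, so no function is given for any of the 150, and whether they hold any of the usual references was not tested. In bulk root tissue, fewer cells of a type and less RNA per cell cannot be told apart, and a constant level in the whole root can hold unequal levels in its cell types.

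The 150 contigs spanned CVs of 3.60 to 10.4%, with a median of 8.52%, while the other eligible contigs ran from 10.4 to 171% with a median of 32.6%. A CV under 5% was reached by 8 contigs and one under 7% by 33. The highest of the 9 libraries was 1.1 to 1.45 times the lowest, with a median of 1.29, and in the other eligible contigs the median was 2.51. The boundary fell in a continuous distribution. The last contigs inside, Unigene14730_mixA and Unigene14550_mixA, had CVs of 10.37% and 10.39%, and the first outside, Unigene5779_mixA and Unigene21487_mixA, had 10.39% and 10.44%.

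**Figure D1:**
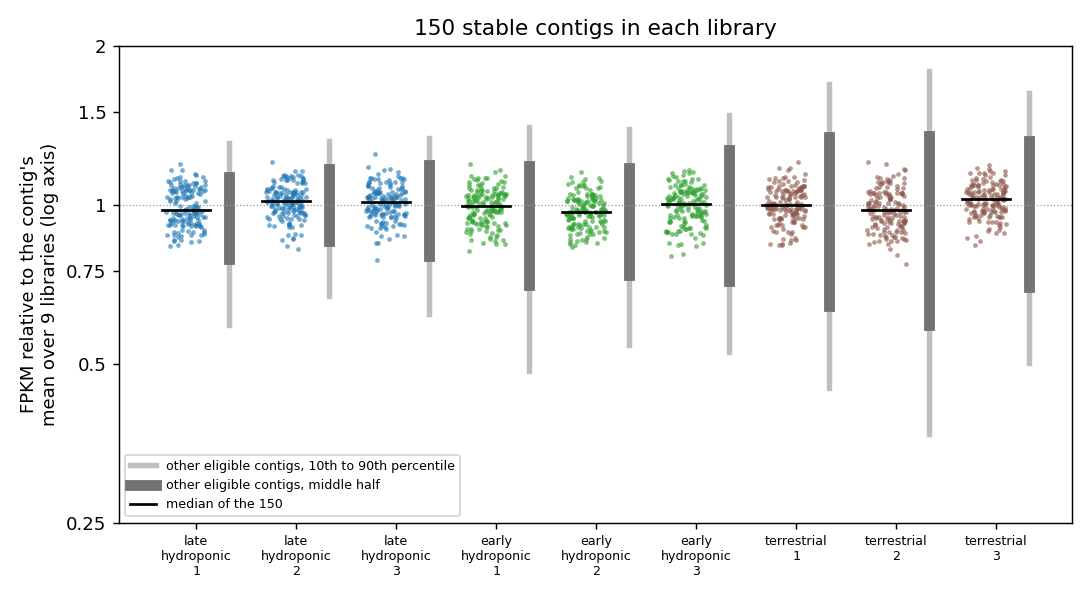
FPKM of each of the 150 stable contigs (points) relative to its own mean over the 9 libraries, on a log axis, by library, with black bars at the median of the 150; dark grey bars give the interquartile range and light grey bars the 10th to 90th percentile of the other eligible contigs. The medians lie between 0.971 and 1.025 in all 9 libraries, and the other eligible contigs spread most in the terrestrial libraries.

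The steadiest contig was also the most abundant and the shortest of the set. Unigene21246_mixA, of 302 bases, stood at 577.72, 570.77 and 589.5 FPKM in late hydroponic, at 522.75, 561.5 and 568.18 FPKM in early hydroponic and at 547.76, 577.59 and 548.59 FPKM in terrestrial replicates 1, 2 and 3. The late libraries lay above all early ones by a narrow margin, and the terrestrial libraries overlapped with both. Its mean over the 9 libraries was 562.7 FPKM with a CV of 3.60%. In 0 of 9 libraries was its expected count whole, so reads were divided between it and other contigs everywhere, and its level depends on how that was done.

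Unigene26821_mixA was nearly as steady at a far lower level, with a CV of 3.64%. This contig of 2842 bases had 42.18, 39.94 and 42.82 FPKM in late hydroponic, 43.34, 42.98 and 40.3 FPKM in early hydroponic and 41.98, 39.4 and 40.1 FPKM in terrestrial roots. In FPKM its 3 groups overlapped with one another. With the TMM scaling described below its CV was 10.1%. In the edgeR fit on that scale it was called higher in early hydroponic than in terrestrial roots (log2 change 0.29 ± 0.10, SE). Unigene2425_mixA, of 1716 bases with a CV of 4.08%, had 71.05, 71.41 and 75.79 FPKM in late hydroponic, 69.77, 68.14 and 69.19 FPKM in early hydroponic and 69.15, 74.94 and 75.08 FPKM in terrestrial roots. Its early libraries were the closest to each other, at 69.0 ± 0.83 FPKM (SD, n = 3), and all lay below the late ones.

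Unigene15576_mixA, a short contig of 561 bases with a CV of 4.16%, was the third most abundant of the set. It had 240.08, 258.72 and 245.2 FPKM in late hydroponic, 244.04, 246.28 and 257.62 FPKM in early hydroponic and 263.96, 257.13 and 271.78 FPKM in terrestrial roots. Terrestrial roots held the highest mean, 264 ± 7.33 FPKM (SD, n = 3), but overlapped with both hydroponic groups. Unigene25068_mixA, of 1034 bases, stood just above the level required, at 30.79, 32.93 and 32.28 FPKM in late hydroponic, 31.42, 34.06 and 32.99 FPKM in early hydroponic and 31.57, 34.88 and 34.49 FPKM in terrestrial roots. No group of it lay apart from another, and its CV was 4.38%.

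At the other end of the set, variation between replicates was plain in single contigs. Unigene14730_mixA had 41.16, 35.64 and 30.09 FPKM in late hydroponic, 35.63, 30.4 and 33.14 FPKM in early hydroponic and 34.28, 37.71 and 31.92 FPKM in terrestrial roots, so its late libraries alone spanned more than the 3 group means. Unigene14550_mixA had 27.69, 32.01 and 33.18 FPKM in late hydroponic, 27.28, 25.59 and 29.46 FPKM in early hydroponic and 29.95, 35.39 and 32.06 FPKM in terrestrial roots. Here the early libraries all lay below the terrestrial ones.

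**Figure D2:**
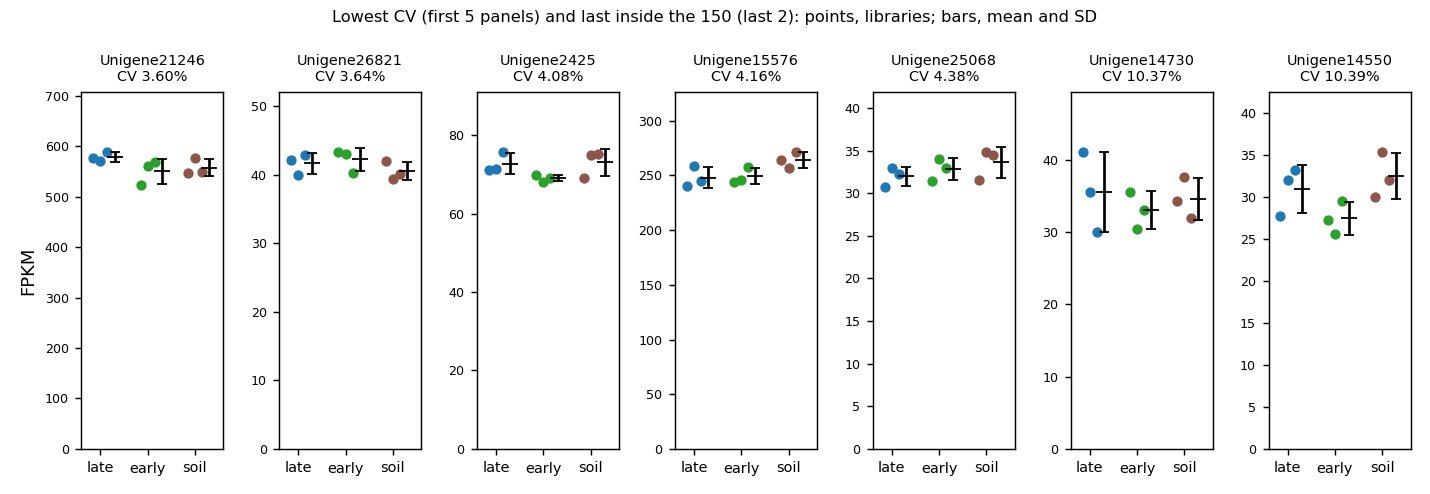
FPKM by group (late hydroponic, early hydroponic, and terrestrial roots labelled soil) in the 5 contigs with the lowest CV and the last contigs inside the set; points are libraries, bars are the mean and SD of 3, and each axis starts at 0. The CV runs from 3.60% at the left to 10.39% at the right, and the late libraries of Unigene14730_mixA are visibly uneven.

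Abundance within the set was skewed towards the minimum. The median contig averaged 48.1 FPKM, the range was 30.0 to 563 FPKM, and 24 contigs reached 100 FPKM and 4 reached 200 FPKM. Members were 6.08% of the eligible contigs between 30 and 50 FPKM (83 of 1365), 4.11% of those between 50 and 100 (43 of 1047), 4.11% of those between 100 and 200 (20 of 487) and 1.33% of those at 200 FPKM or more (4 of 300). The median CV of eligible contigs was 27.5% in the lowest of these classes and 43.2% in the highest, so abundant contigs were the more variable ones. Unigene5594_mixA, the second most abundant member, shows how far a well-measured contig may vary and still be included. It had 246.08, 277.75 and 293.59 FPKM in late hydroponic, 267.59, 271.69 and 272.06 FPKM in early hydroponic and 316.48, 315.69 and 319.63 FPKM in terrestrial roots. Both hydroponic groups lay below the terrestrial libraries, and the late ones were the uneven group, with a CV of 9.06% over all 9.

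Together the 150 took up a nearly fixed part of each library, which follows from the choice on FPKM. Their summed expected counts were 1.68 ± 0.019% of listed counts in late hydroponic, 1.65 ± 0.020% in early hydroponic and 1.68 ± 0.038% in terrestrial roots (SD, n = 3 each). No member was among the 100 most abundant contigs of any library except 1 in terrestrial replicate 3. Those 100 contigs took 14.3 ± 1.35% of counts in late hydroponic, 17.1 ± 0.71% in early hydroponic and 15.4 ± 1.43% in terrestrial roots. Without them the members' share was 1.96 ± 0.027% in late hydroponic, 1.99 ± 0.024% in early hydroponic and 1.96 ± 0.037% in terrestrial roots.

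Counting sets a floor to the spread. With 181 to 6935 expected counts on average per library, counting alone gives a CV of 1.201 to 7.44%, with a median of 3.17%. The observed CV was 2.56 times that at the median, and 10.1 times in the other eligible contigs. It was under the counting value in 3 members and 0 other eligible contigs, and under 2 times the counting value in 38 members and 10 others. The 0 was fixed by the choice, since the other eligible contigs had CVs from 10.4% and counting CVs up to 9.46%. That the members had the lower ratios follows from the choice as well. The 2 lowest ratios, both 0.83, belonged to Unigene25068_mixA, with 359 counts on average, and Unigene15068_mixA, with 329. Unigene15068_mixA, of 830 bases, had 40.2, 38.56 and 40.22 FPKM in late hydroponic, 38.97, 36.81 and 37.63 FPKM in early hydroponic and 37.17, 35.29 and 36.09 FPKM in terrestrial roots. In FPKM its spread over all libraries was no wider than counting error gives, yet its late libraries lay above all terrestrial ones. With TMM scaling its CV was 9.82% against a counting CV of 5.51%. In the edgeR fit it was called higher in early hydroponic than in terrestrial roots (log2 change 0.30 ± 0.10, SE). Unigene5594_mixA, with 5077 counts, had the highest ratio of the set, 6.45.

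**Figure D3:**
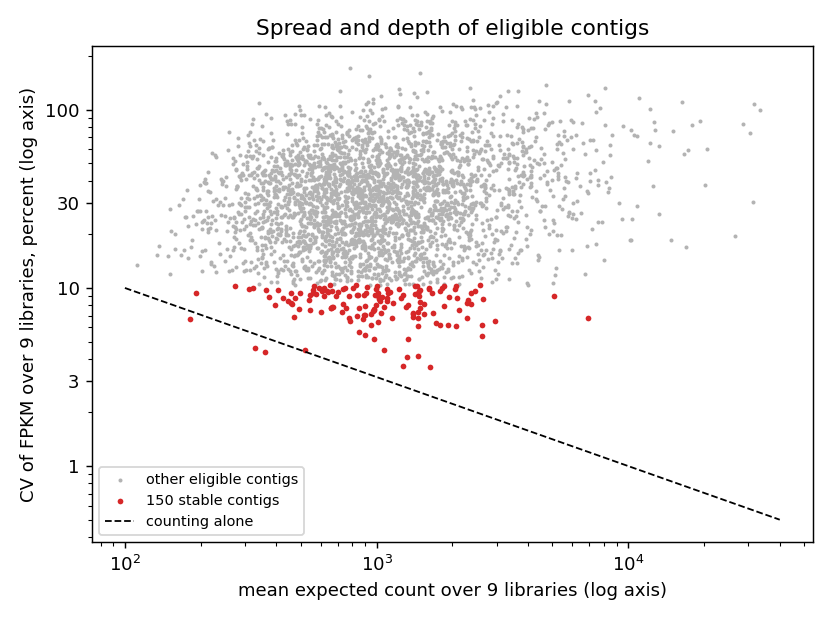
CV of FPKM over the 9 libraries, in percent, against the mean expected count for the 3199 eligible contigs, both on log axes, with the 150 stable contigs in red and a dashed line for the CV that counting alone gives. The red points lie below 10.4% by choice, and 3 of them fall under the dashed line.

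In FPKM, the scale of the choice, differences between groups were small, which follows from the choice, and no single order of the groups prevailed. On the TMM scale described below the order was less even. There 139 of the 150 changes were above 0 for early hydroponic against terrestrial roots. For late hydroponic against terrestrial roots 120 were above 0, and for late against early hydroponic roots 29. The values that follow are in FPKM. The highest group mean exceeded the lowest by a factor of 1.01 to 1.24, with a median of 1.12, against 1.96 in the other eligible contigs. Replicates of a group varied with a median CV of 6.68% in the 150 and 12.8% in the other eligible contigs. This follows from the choice, because spread within groups is part of the CV over the 9 libraries. Of each contig's variation over the 9 libraries, a median of 47.0% lay between groups, against 86.2% in the other eligible contigs. The 6 possible orders of the group means were held by 18 to 34 contigs each. The most frequent order, in 34, was terrestrial above late hydroponic above early hydroponic, and the least frequent, in 18, was terrestrial above early hydroponic above late hydroponic.

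Terrestrial replicate 2 was the lowest of the 9 libraries in 31 contigs and terrestrial replicate 3 the highest in 27, while the counts in the other libraries were 8 to 23 and 9 to 20. In terrestrial replicate 2, 103 contigs lay within 10% of their 9-library mean, and 113 to 120 did so in each of the other libraries. Over all contigs, terrestrial replicate 2 differed from terrestrial replicates 1 and 3 by a chi-square of counts of 27.2 and 31.5 per degree of freedom, and those replicates differed from each other by 8.8. The late hydroponic pairs differed by 25.6 to 41.8 and the early hydroponic pairs by 11.4 to 13.0, so by this measure replicates of late hydroponic roots differed as much. Its part in the choice was not tested beyond the values without it given below.

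A library left out of the choice gave the nearest thing to an independent measurement. The 150 lowest CVs were chosen again from 8 libraries at a time, and the level in the ninth was set against the mean of those 8. The median deviation was 9.44, 6.65 and 6.54% when late hydroponic replicates 1, 2 and 3 were left out, 7.62, 7.66 and 7.73% for the early hydroponic replicates, and 7.35, 12.5 and 7.54% for the terrestrial ones. Terrestrial replicate 2 was the hardest to foresee. In the contigs not chosen, the median deviation ran from 17.8 to 42.7% and was highest for terrestrial replicate 2 as well. Between 110 and 143 of each 150 lay within 20% of the level in the other libraries, 73.3 to 95.3%, and the share among contigs not chosen was 21.9 to 55.2%. The remaining replicates of the same group did enter each choice, so this says nothing of a root grown under another condition.

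**Figure D4:**
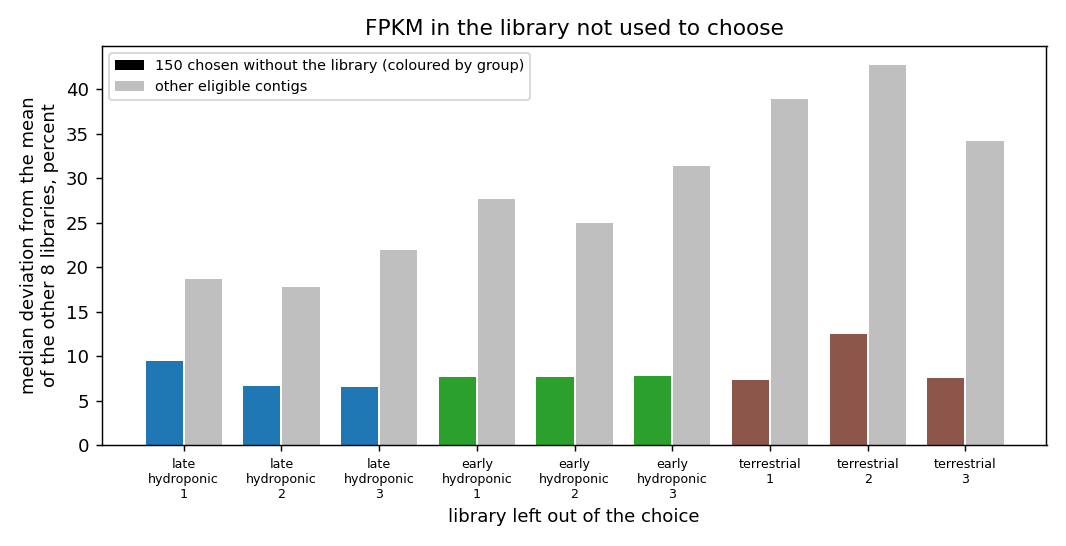
Median deviation of FPKM in a left-out library from the mean of the other 8, in percent, for the 150 contigs chosen without that library (coloured by group) and for the other eligible contigs (grey). The coloured bars run from 6.54 to 12.5% and the grey bars from 17.8 to 42.7%, and terrestrial replicate 2 has the tallest of each kind.

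The spread of the set was wider on another scale. FPKM divides by all reads of a library, whereas TMM scaling, used for the fits between groups, aligns libraries on the bulk of contigs after trimming extreme ones. On the TMM scale the median CV of the same 150 contigs was 10.1%, and 69 of them had a CV under 10%, as did 63 other eligible contigs. The TMM scaling factors were 1.002, 1.06 and 0.981 in late hydroponic, 0.909, 0.906 and 0.935 in early hydroponic and 1.09, 1.04 and 1.11 in terrestrial libraries. Relative to their own means on that scale, the median member stood at 0.981, 0.964 and 1.034 in late hydroponic, at 1.093, 1.070 and 1.075 in early hydroponic and at 0.917, 0.941 and 0.922 in terrestrial libraries. The early libraries were all above the late ones and the terrestrial libraries were all below the late ones, whereas on the FPKM scale the group means of these medians were 1.004 in late hydroponic, 0.991 in early hydroponic and 1.002 in terrestrial roots.

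Late hydroponic against terrestrial roots compared water with soil at 1 seedling age. On the TMM scale the median log2 change of the 150 was 0.10, with a range of -0.17 to 0.41, and 120 changes were above 0. The median over all 26747 contigs tested was 0.02, and that of the other eligible contigs was 0.23. On the FPKM scale the median of the members was 0.00 and 78 were above 0. With a Benjamini-Hochberg adjusted p under 0.05 in edgeR's quasi-likelihood test as the threshold, 14 members were called, all higher in late hydroponic roots, against 52.9% of all contigs in either direction, 28.7% higher and 24.2% lower. The low count follows from how the members were chosen. Without late hydroponic replicate 3 the count was 4, and without terrestrial replicates 1, 2 and 3 it was 2, 9 and 3. It was 20 with DESeq2 (18 higher and 2 lower), 9 with the replicate number as a block and 5 (3 higher and 2 lower) with library totals alone. The late and terrestrial libraries did not overlap in FPKM in 33 members, 18 higher and 15 lower, where 62% of all tested contigs did not overlap, 29.2% higher and 32.7% lower.

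On the FPKM scale the extreme log2 changes of the 150 were 0.32 and -0.26. Unigene4009_mixA, of 1889 bases, had 131.64, 139.43 and 149.98 FPKM in late hydroponic and 109.77, 110.37 and 118.31 FPKM in terrestrial roots, and Unigene14505_mixA, of 2034 bases, had 75.36, 71.78 and 74.8 FPKM against 56.78, 64.58 and 60.05 FPKM in terrestrial roots. All late libraries lay above all terrestrial ones in both. Their log2 changes were 0.41 ± 0.10 and 0.38 ± 0.10 (SE) on the TMM scale. Unigene17642_mixA, of 2478 bases, had 78.07, 79.85 and 76.97 FPKM in late hydroponic and 91.04, 92.58 and 97.77 FPKM in terrestrial roots. Unigene70_mixA, of 2619 bases, had 81.2, 79.1 and 76.89 FPKM in late hydroponic and 92.8, 92.68 and 96.1 FPKM in terrestrial roots. In both the late libraries lay below the terrestrial ones, with log2 changes of -0.17 ± 0.09 and -0.15 ± 0.09 (SE) on the TMM scale, and neither was called there by edgeR. With library totals alone their log2 changes were -0.26 and -0.24 and both were called. DESeq2 called both at -0.18 and -0.17.

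Early hydroponic against terrestrial roots, which differ in medium and in seedling age, showed the widest gap between the scales. The median log2 change of the 150 was 0.21 on the TMM scale, with a range of -0.04 to 0.50, and 139 changes were above 0. The median over all contigs tested was -0.09, and that of the other eligible contigs was 0.26. On the FPKM scale the median of the members was -0.02 and 69 were above 0. The scale alone moved the median member by 0.23, the same for every contig in a library. With library totals alone the members' median was -0.01 while that of all contigs tested was -0.32. The members' median thus lay above that of all contigs by 0.30 on either scale. The other eligible contigs also lay above all contigs on the TMM scale, so the offset was not particular to the members. With TMM scaling 52 members were called, all higher in early hydroponic roots, against 61.1% of all contigs in either direction, 30.1% higher and 31% lower. With library totals alone 6 were called, 1 higher and 5 lower. The 1 higher was Unigene12687_mixA, the only member called on both scales, and the 5 lower were not called with TMM scaling. Early and terrestrial libraries did not overlap in FPKM in 52 members, 21 higher and 31 lower, against 72.3% of all tested contigs, 29.1% higher and 43.3% lower.

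Unigene12687_mixA, of 1508 bases, had 38.93, 39.12 and 40.52 FPKM in early hydroponic and 31.79, 32.88 and 33.93 FPKM in terrestrial roots. Unigene19709_mixA, of 1237 bases, had 33.71, 36.1 and 35.68 FPKM in early hydroponic and 29.42, 30.36 and 28.97 FPKM in terrestrial roots. The early libraries of both lay above all terrestrial ones, with log2 changes of 0.50 ± 0.10 and 0.48 ± 0.10 (SE) on the TMM scale. Unigene2988_mixA, of 3674 bases, had 36.7, 31.18 and 31.97 FPKM in early hydroponic and 42.69, 37.63 and 40.62 FPKM in terrestrial roots, and Unigene32215_mixA, of 1189 bases, had 67.82, 73.11 and 77.16 FPKM against 87.23, 91.56 and 84.66 FPKM in terrestrial roots. In FPKM the early libraries of both lay below all terrestrial ones, yet on the TMM scale their log2 changes were -0.04 ± 0.10 each (SE). With library totals alone they were -0.28 and -0.27, and both were called lower. The expected count of Unigene32215_mixA was whole in 0 of the 9.

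**Figure D5:**
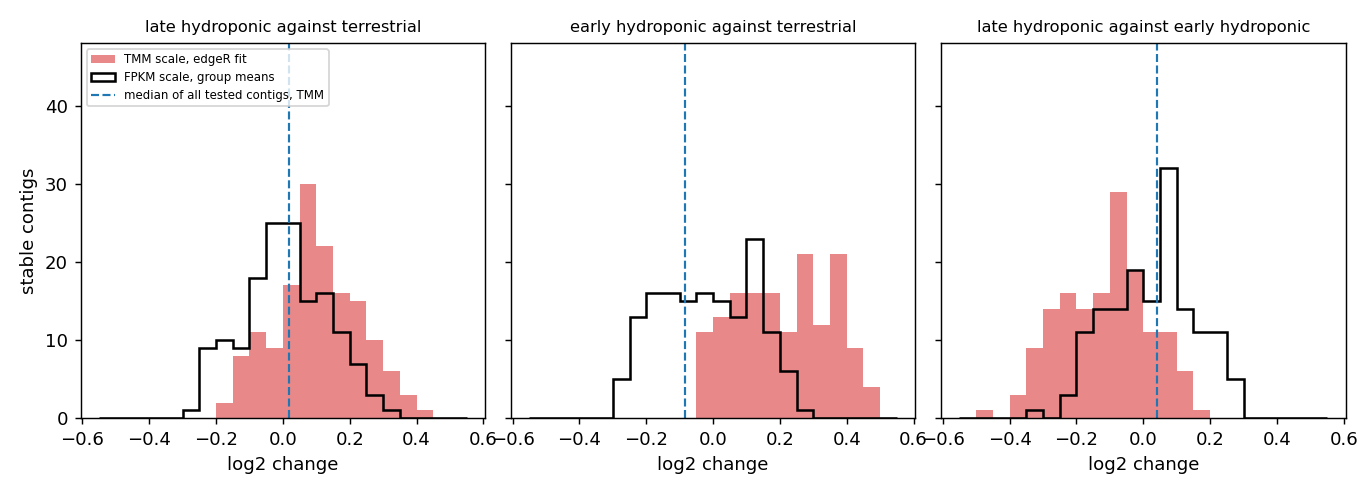
Number of the 150 stable contigs by log2 change in each comparison, as fitted by edgeR on the TMM scale (filled) and from group means of FPKM (outline), with a dashed line at the median of all 26747 contigs tested on the TMM scale. The filled distribution lies to the right of the outline against terrestrial roots, most for early hydroponic roots, and to its left for late against early hydroponic roots.

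Late against early hydroponic roots set the older water roots against the younger ones. The median log2 change of the 150 was -0.10 on the TMM scale, with a range of -0.45 to 0.16, and 29 changes were above 0. The median was 0.04 over all contigs tested and -0.08 in the other eligible contigs. On the FPKM scale the median of the members was 0.04 and 88 were above 0. With edgeR 2 members were called, both lower in late roots, against 14.7% of all contigs in either direction, 8.37% higher and 6.3% lower. The count was 25 without late hydroponic replicate 3, 8 without terrestrial replicate 3, 5 without terrestrial replicate 2 and 1 without late replicate 1 or 2 or any early replicate. It was 33 with DESeq2, 12 with edgeR on DESeq2's size factors, 1 with the replicate block and 0 with library totals alone, where 10 members had an unadjusted p under 0.05. Late and early libraries did not overlap in FPKM in 43 members, 27 higher and 16 lower, against 39.5% of all tested contigs, 26.3% higher and 13.2% lower.

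The called members were Unigene7633_mixA and Unigene4697_mixA. Unigene7633_mixA, of 1128 bases, had 104.63, 108.76 and 102.21 FPKM in late hydroponic, 123.54, 136.91 and 131.49 FPKM in early hydroponic and 122.84, 112.21 and 124.47 FPKM in terrestrial roots. Unigene4697_mixA, of 340 bases and the second shortest of the set, had 113.86, 112.96 and 107.33 FPKM in late hydroponic, 130.56, 129.06 and 132.2 FPKM in early hydroponic and 114.57, 114.04 and 109.99 FPKM in terrestrial roots. Its early libraries stood apart from both other groups, which overlapped, and its 3 groups were each narrow. The log2 changes, late over early, were -0.45 ± 0.09 and -0.37 ± 0.09 (SE) on the TMM scale. On the other side, Unigene26839_mixA, of 1384 bases, had 40.77, 43.67 and 41.43 FPKM in late and 35.24, 32.67 and 34.37 FPKM in early hydroponic roots, with a log2 change of 0.16 ± 0.09 (SE). Unigene26512_mixA, of 928 bases, had 35.45, 35.93 and 35.06 FPKM in late and 28.43, 28.85 and 30.83 FPKM in early hydroponic roots, with a log2 change of 0.13 ± 0.10 (SE). All late libraries of both lay above all early ones in FPKM, and neither was called.

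Over the 3 comparisons, 94 of the 150 were called in none and 56 in at least 1, against 30.4% and 69.6% of all contigs tested. In FPKM, the groups overlapped in all 3 comparisons for 70, against 16.2% of all contigs tested, and 48 met both conditions, against 15.2%. These counts follow from the choice as well. The member furthest from 0 on the TMM scale was Unigene12687_mixA, at 0.50 for early hydroponic against terrestrial roots, and its log2 change was 0.54 with DESeq2, 0.57 with no count filter and 0.27 with library totals alone. Contigs could nonetheless be called at small changes. In size, the smallest called was 0.24 for late hydroponic against terrestrial and 0.27 for early hydroponic against terrestrial roots. For late against early hydroponic roots it was 0.37. The median SE of a member was 0.10 and that of all contigs tested 0.29. The small SE follows from the choice too, which took low spread and at least 100 counts in every library. Of the other eligible contigs, 72.4% were called for late hydroponic against terrestrial, 77.4% for early hydroponic against terrestrial and 20.04% for late against early hydroponic roots.

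Membership changed with the scale, with the thresholds and with single libraries. Of the 150, 119 stayed among the 150 lowest by CV of TPM (FPKM rescaled to a fixed sum), 78 by CV of TMM-scaled counts and 64 with DESeq2's size factors. A ranking by the SD of log2 ratios between pairs of eligible contigs, which no library scaling can move, retained 111. Leaving out 1 library at a time retained 124 to 136, apart from terrestrial replicate 2, without which 108 remained. A minimum of 10 FPKM retained 72, because less abundant contigs took the places, and a robust CV retained 70. In all 9 choices with a library left out 96 contigs recurred, and in all 4 rankings on another scale 42 did.

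A core of 8 contigs was among the lowest 150 in each of the 19 alternatives listed, including a minimum of 100 FPKM, which only 24 members can meet. They were Unigene21246_mixA, Unigene15576_mixA, Unigene29646_mixA, Unigene8593_mixA, Unigene1690_mixA, Unigene33275_mixA, Unigene3376_mixA and Unigene25865_mixA, the last 5 of which were singled out after their values were seen. The minimum of 100 FPKM shaped the core's size and level, as 17 members recurred in the other 18 alternatives. Expected counts were whole in 0 of 9 libraries for Unigene21246_mixA, Unigene1690_mixA and Unigene33275_mixA, and in all 9 for the rest of the core. The core ran from 125 to 563 FPKM, from 302 to 3753 bases and from 3.60 to 7.11% in CV. On the TMM scale its CVs were 5.27 to 9.19%. Unigene29646_mixA, of 1523 bases, was the steadiest of the core on that scale, and its CV on the FPKM scale was 5.38%. It had 151.2, 164.54 and 170.31 FPKM in late hydroponic, 155.85, 154.15 and 155.21 FPKM in early hydroponic and 174.15, 159.03 and 172.59 FPKM in terrestrial roots. Only its early and terrestrial libraries did not overlap.

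The ratio of FPKM between a pair of contigs in the same library removes the library's scaling altogether. The ratio of Unigene15576_mixA to Unigene29646_mixA was 1.59, 1.57 and 1.44 in late hydroponic, 1.57, 1.60 and 1.66 in early hydroponic and 1.52, 1.62 and 1.57 in terrestrial replicates 1, 2 and 3, with a CV of 3.98%. The 3 groups overlapped. The ratio of Unigene21246_mixA to Unigene15576_mixA was less even, from 2.02 to 2.41 with a CV of 5.98%, and that of Unigene21246_mixA to Unigene29646_mixA ran from 3.15 to 3.82 with a CV of 6.55%. Over all pairs within the 150, a contig's log2 ratio to the others had an SD of 0.17 on average at the median, and of 0.13 to 0.20 over the contigs.

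The contigs of the set were somewhat longer than the other eligible ones. The rule did not rank on length, but length entered through the level and count minimums and through counting error, which is part of the CV. Their median length was 1745 bases, with an interquartile range of 1241 to 2250, against 1450 bases and 984 to 2030. Members were 2.53% of eligible contigs between 500 and 1000 bases and 6.72% of those of 3000 bases or more. The median counting CV of eligible contigs was 4.10% and 2.29% in these classes. How far that accounts for the difference in length was not tested. The longest were Unigene2061_mixA, of 4531 bases, and Unigene5156_mixA, of 4074. Unigene2061_mixA had 26.82, 29.92 and 26.78 FPKM in late hydroponic, 31.71, 29.23 and 28.09 FPKM in early hydroponic and 35.32, 29.84 and 33.51 FPKM in terrestrial roots. Its groups overlapped in each comparison, and 0 of its 9 expected counts were whole. Unigene5156_mixA had 29.19, 30.95 and 30.92 FPKM in late hydroponic, 32.96, 28.03 and 30.88 FPKM in early hydroponic and 28.34, 29.13 and 29.94 FPKM in terrestrial roots, so its groups overlapped too, with a CV of 5.17%.

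Reads shared with other contigs were about as frequent in the set as outside it. Expected counts were whole in all 9 libraries, within 1e-06, for 117 of the 150 (78%) and for 77.7% of the other eligible contigs. They were whole in no library for 22 members (14.7%) and for 12.1% of the others. Both sets had similar depth, with median mean counts of 995 in the 150 and 965 in the others.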

How the data were processed

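Members, naming rule and lists were chosen with earlier results of these data known. Per the labels, 10 root samples comprised 1 pool, which was not analysed here, and 9 libraries in 3 groups. Per the series' design text, contigs were assembled from the pool and the 9 samples were quantified on a BGISEQ500 instrument. The aligner and counting program are not given in the sources used here. Per the file headers, the authors' deposited tables give each contig's length, expected count (estimated reads, which need not be whole) and FPKM. The deposited FPKM equals the count per kilobase of length less 36.5 bases and scaled to a library total of which the listed counts make up 97.2 to 97.4%. A contig not listed in a library was entered as 0, which concerns no member.

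FPKM was used for the choice, levels and CVs (SD with n - 1). Rounded expected counts entered edgeR 4.0.16 (R 4.3.3): filterByExpr (minimum count 10, 26747 contigs kept, all 150 members among them), TMM, and a robust quasi-likelihood fit of all 9 libraries with 6 residual degrees of freedom. The Benjamini-Hochberg adjusted p was set at 0.05 over all contigs tested. SE is the absolute change over the square root of F. DESeq2 1.42.0, limma 3.58.1 on log2(FPKM + 1) and log2(FPKM + 0.1), other scalings, no count filter, a replicate block and each library left out were alternatives. Where a group is left with 2 libraries, the spread is pooled over the groups. The fits and the choice were run on simulated data with far fewer changed contigs and a sharper boundary than here. Those runs therefore say nothing of the scaling or of the boundary of the set. If replicates are technical, p-values measure only the spread between these samples. No library was a copy of another, the chi-square between replicates being 8.8 to 41.8 per degree of freedom. Named contigs are the 5 with the lowest CV, the 3 most abundant, the 2 longest and 2 shortest, those beside the boundary, the first 2 higher and first 2 lower in each comparison, the first 3 retained under all 19 alternatives and the 2 with the lowest CV over counting CV. A contig can meet several of these.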

Additional observations from a re-analysis of the deposited data

How the results depend on the processing

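The members called in late hydroponic against terrestrial roots numbered 14, and 20 with DESeq2, 5 with library totals alone or with limma on either log scale, 9 with no count filter, 9 with the replicate block and 2 to 13 with each library left out. For early hydroponic against terrestrial roots they numbered 52, and 6 with library totals alone, 4 with limma on log2(FPKM + 1), 7 on log2(FPKM + 0.1) and 37 to 73 with each library left out. For late against early hydroponic roots they numbered 2, and 12 with edgeR on DESeq2's size factors, 33 with DESeq2 itself, 5 with no count filter, 1 with the replicate block, 1 to 25 with each library left out and 0 with library totals alone or with limma, where 9 or 10 members had an unadjusted p under 0.05. Over all contigs tested, 3922 were called in that comparison, and 1598 to 5687 with each library left out. The members' median log2 change moved in late hydroponic against terrestrial roots from 0.0956 to 0.006 with library totals and to 0.0007 and 0.0006 with limma. In early hydroponic against terrestrial roots it moved from 0.2146 to 0.251 with DESeq2's size factors, 0.2511 with DESeq2, 0.2901 with no count filter, -0.0147 with library totals and -0.0178 and -0.0179 with limma. In late against early hydroponic roots it moved from -0.0971 to -0.1467 with DESeq2's size factors and with DESeq2, to -0.1577 with no count filter, to 0.0472 with library totals and to 0.041 and 0.042 with limma. With each library left out these medians ran from 0.0585 to 0.1313, from 0.2208 to 0.2774 and from -0.2157 to -0.0914, in the same order of comparisons.

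Beside the choices given above, 145 members were retained by the SD of log2(FPKM + 1), 122 with a minimum count of 500, 126 with cluster contigs included, 92 by the CV of the 3 group means, 24 with a minimum of 100 FPKM, 78 and 64 on the TMM and DESeq2 scales, 70 by the robust CV, 72 with a minimum of 10 FPKM, and 108 to 136 with each library left out. The median CV of 8.52% was 10.1% on the TMM scale, 11% with DESeq2's size factors, 8.45% in TPM, 7.79% as a robust CV and 8.18 to 8.38% with each library left out. The share of counts was 1.67% on average and 1.97% without the 100 most abundant contigs of each library.

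The log2 change of Unigene2988_mixA, early hydroponic against terrestrial, turned positive with no count filter (0.033), and without late replicates 2 and 3 (0.0185 and 0.0209), early replicates 2 and 3 (0.011 and 0.0163) and terrestrial replicate 1 (0.044), within a range of -0.1076 to 0.044 over the libraries left out. That of Unigene32215_mixA did so with no count filter (0.0339), and without late replicates 2 and 3 (0.0191 and 0.0216), early replicate 1 (0.017) and terrestrial replicate 2 (0.015), within a range of -0.055 to 0.0216. With library totals alone both contigs were called lower, at -0.2761 and -0.2721. Limma called both lower too, at -0.2708 and -0.2705 on log2(FPKM + 1) and at -0.2775 and -0.2735 on log2(FPKM + 0.1). Apart from the scalings, which act by construction, the cause was not tested. Samples with the same replicate number deviated together with r of -0.093 to 0.135 across contigs, and those with unlike numbers with r of -0.165 to 0.126. The numbers thus showed no pairing, but 3 libraries per group cannot exclude it. The replicate block gave 13572, 15919 and 3093 calls over all contigs for late hydroponic against terrestrial, early hydroponic against terrestrial and late against early hydroponic roots. Counting error limits the members with the fewest counts, up to a counting CV of 7.44% in Unigene30027_mixA, a short contig with 181 counts on average.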

Other observations

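Other choices brought in contigs with patterns of their own. Ranking by CV on the TMM scale brought in 72 contigs in place of the members it dropped, with a median level of 44.4 FPKM and a median length of 1728 bases. Their median CV was 12.5% in FPKM and 8.68% on the TMM scale. In FPKM, 0 of the 72 were higher in early hydroponic than in terrestrial roots by group means, and their median log2 change was -0.33. For late against early hydroponic roots 64 of the 72 were higher in FPKM, with a median of 0.17. These directions follow from the change of scale by which the contigs were chosen.

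With cluster contigs included, 24 contigs from 23 clusters entered the lowest 150, with a median level of 108 FPKM and a median CV of 7.71%. The expected counts of 7 of the 24 were whole in all 9 libraries, so most of them divided reads with other contigs. With a minimum of 10 FPKM, 78 contigs entered, with a median level of 19.98 FPKM, a median length of 2068 bases and a median CV of 7.47%, and 74 of them had whole counts in all 9 libraries.

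A robust CV, built on the median absolute deviation, brought in 80 contigs whose ordinary CV was 15.1% at the median and reached 75.4%. A ranking by the 3 group means brought in 58 contigs with a median CV of 12.5%, whose median log2 changes in FPKM were -0.01 for late hydroponic against terrestrial, -0.02 for early hydroponic against terrestrial and 0.00 for late against early hydroponic roots.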
